A study of Mus musculus with 8 samples.

Results

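Growth factors and angiogenic factors made by myeloid cells were followed across 4 pools of mouse CD11b+Gr-1+ cells, that is, cells carrying surface proteins of granulocytes and monocytes. The 9 genes chosen were Vegfa, Osm, Hbegf, Areg, Ereg, Igf1, Csf1, Pdgfb and Il6, and every probe set annotated to one of them and to no other gene was taken. This gave 17 of the 45101 probe sets on the array, for 8 of the 9 genes. Areg, an epidermal growth factor receptor ligand, had no such probe set and was not analysed here.

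These factors act on cells beside the one that makes them. Vegfa and Pdgfb drive the sprouting of blood vessels and the recruitment of the mural cells that coat them. Hbegf, Ereg and Areg are made as membrane proteins, are cut free by ADAM metalloproteases and bind receptors of the epidermal growth factor family on epithelium. Osm and Il6 signal through receptor complexes that share the gp130 chain and activate STAT3, Csf1 keeps monocytes and macrophages alive through Csf1r, and Igf1 promotes growth and survival through Igf1r. In the gut, Il6 and receptor ligands of this kind from myeloid cells are known to promote epithelial repair and tumor growth.

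All mice were of strain C57BL/6J and, per the sample labels, carried the HDC-EGFP transgene, a fluorescent reporter of Hdc, the gene for the histamine-making enzyme histidine decarboxylase. The wild-type bone marrow pool came from HDC-EGFP mice and the HDC-KO bone marrow pool from HDC-EGFP/HDC-KO mice, 3 mice each, 3 to 4 months old, and these cells were described as HDC-expressing. The wild-type tumor pool and the pool labelled HDC-KO tumor came from colon tumors of mice of the same genotypes, 5 mice each, 7 months old, after AOM/DSS, a carcinogen followed by an agent that injures the colon lining. The design text gives 10 to 12 tumors, and no sort on EGFP is named for tumor cells. Each pool was run on 2 arrays that the labels call technical replicates. Every p-value below therefore compares 1 pool with another against the spread between repeat arrays, and the spread between mice was not measured.

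Across the arrays 30.3% to 31.8% of probe sets reached log2 5, the level taken here as background, and over the 15734 probe sets tested the correlation within a pool was 0.9954 to 0.9978. Itgam, which encodes CD11b, lay at a mean log2 level of 12.23, 12.38, 11.93 and 11.25 in wild-type marrow, HDC-KO marrow, wild-type tumor and labelled HDC-KO tumor, and Ptprc, the leukocyte marker CD45, at 13.66 to 13.83. No probe set annotated to Ly6g, Ly6c1 or Ly6c2 alone, the genes behind the Gr-1 stain, was analysed here. Hdc was 10.2-fold lower in HDC-KO than in wild-type marrow, but lay at 13.24 in wild-type tumor and 13.03 in the pool labelled HDC-KO tumor, which went against that label. Directions drawn from that pool rest on its label. Xist, the RNA of the inactive X chromosome of females, lay at log2 12.35 to 12.48 on the 4 marrow arrays and 2.86 to 3.56 on the 4 tumor arrays, while the Y-linked Eif2s3y lay at 2.33 to 2.54 in marrow and 10.89 to 11.17 in tumor. Tumor and marrow pools thus differed in X- and Y-linked RNA as well as in age, treatment and gate, and these cannot be told apart from tissue.

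Il6, Hbegf and Osm lay well above marrow in both tumor pools, while the genotype labels separated only a few of the factors. A probe set passed limma when its Benjamini-Hochberg adjusted p was under 0.05 and its difference at least 2-fold. Of 17 probe sets 10, from 6 genes, reached log2 5 on at least 2 arrays and were tested, and the 7 others included both for Pdgfb and the 1 for Ereg. In the wild-type tumor against marrow comparison 9 of the 10 were called higher and none lower, beside 9.9% of all probe sets called higher and 6.74% lower. In the same comparison of the HDC-KO pools 9 were higher and none lower, beside 18.3% higher and 18.1% lower among all tested. The probe sets of Il6, Hbegf and Igf1 passed the filter only through tumor arrays, so these counts are no support for a shared rise. Between the marrow pools 1 of the 10 was called, lower, beside 2.43% of all called lower and 1.7% higher. Between the tumor pools 5 were called, all higher, beside 13.3% called higher and 10.8% lower. These were 1 probe set of Csf1 and 4 of Igf1, so 2 genes. Of the Igf1 probe sets, 3 passed the filter only through the labelled HDC-KO tumor arrays, where they are high. The brightest read 5.22 and 4.09 in wild-type tumor, so it also needed the labelled HDC-KO tumor arrays to pass. This count is therefore no support either.

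**Figure D1:**
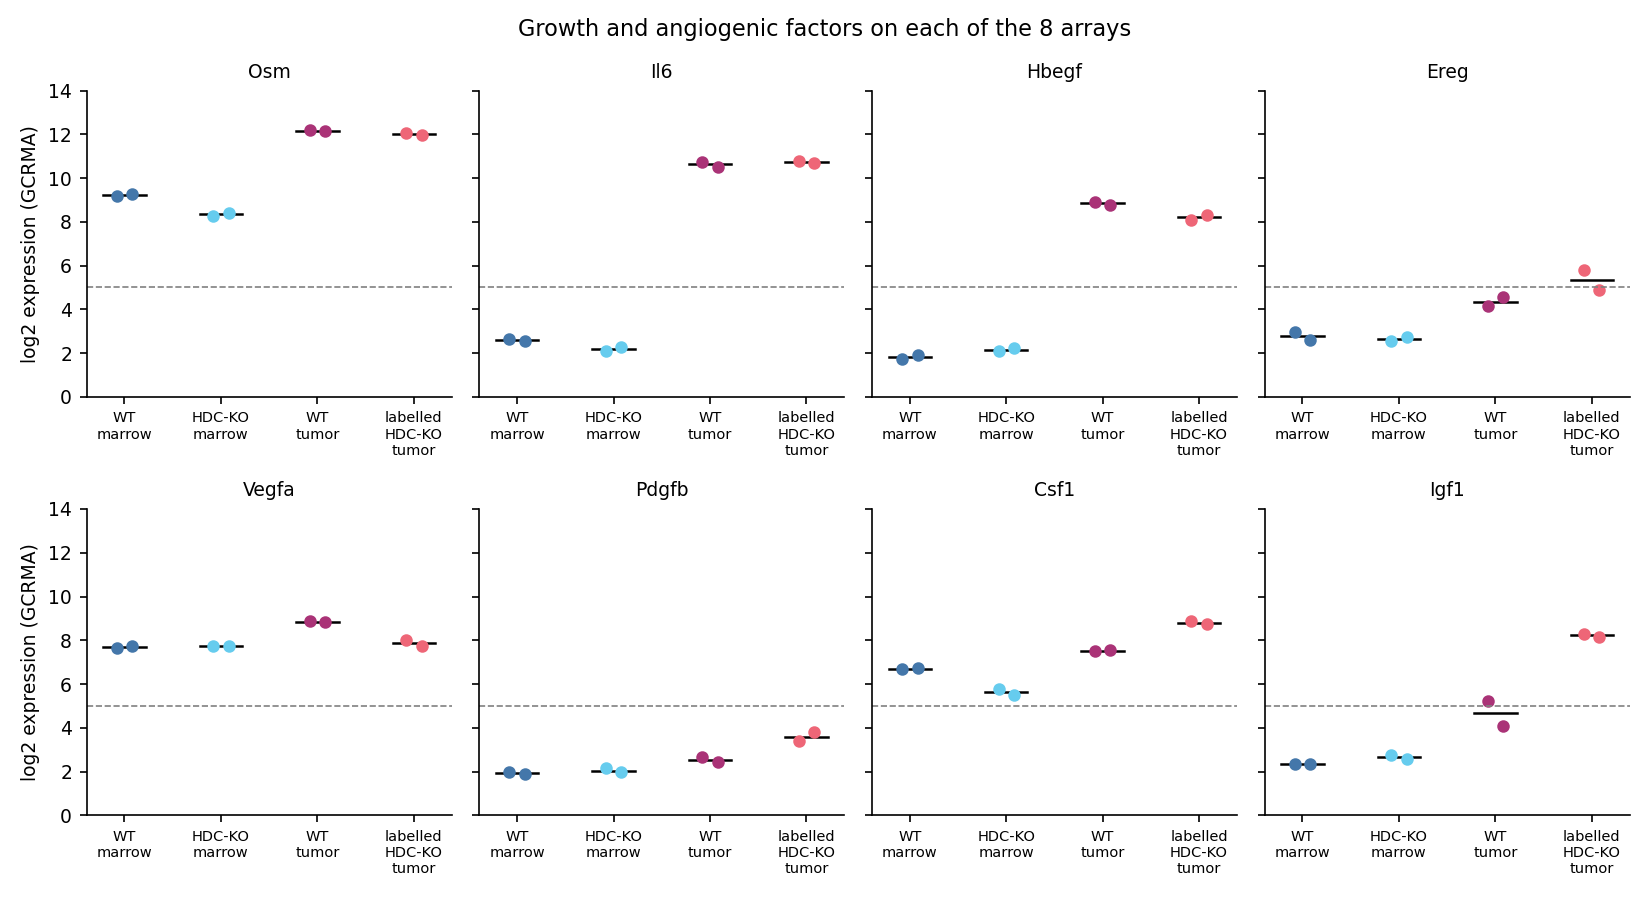
Each panel shows log2 expression of 1 gene (its brightest probe set) on the 2 arrays of each pool, with points for arrays, black lines for pool means and a dashed line at log2 5. Il6 and Hbegf lay under the line in both marrow pools and far above it in both tumor pools, Vegfa and Csf1 were above it in every pool, and Pdgfb stayed under it on every array.

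Il6 was at background in marrow and high in tumor. Its probe set read log2 2.65 and 2.56 on the wild-type marrow arrays, 2.08 and 2.28 on the HDC-KO marrow arrays, 10.74 and 10.52 on the wild-type tumor arrays and 10.77 and 10.67 on the labelled HDC-KO tumor arrays. Every tumor array lay far above every marrow array. Against marrow, Il6 was at least 49.6-fold higher in wild-type tumor (limma, adjusted p = 1.1e-07) and at least 52.8-fold higher in the HDC-KO-labelled comparison (adjusted p = 4.3e-08), with marrow means raised to log2 5. Between the tumor pools the difference was 0.09 ± 0.11 (SE) on the log2 scale, the arrays overlapped and the call was not made (limma, adjusted p = 0.47).

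Osm, which encodes oncostatin M, was expressed in marrow already and rose further in tumor. It read 9.20 and 9.25 in wild-type marrow, 8.27 and 8.42 in HDC-KO marrow, 12.20 and 12.15 in wild-type tumor and 12.07 and 11.96 in labelled HDC-KO tumor. The lowest pool was HDC-KO marrow and no pools overlapped. Osm was 7.72-fold higher in wild-type tumor than in wild-type marrow (limma, adjusted p = 1.1e-06) and 12.7-fold higher in labelled HDC-KO tumor than in HDC-KO marrow (adjusted p = 1.8e-07). In HDC-KO marrow it was 1.84-fold under wild-type marrow, a log2 difference of -0.88 ± 0.08 with an adjusted p of 0.00072 in limma that missed the 2-fold threshold. The tumor pools differed by -0.16 ± 0.08 (limma, adjusted p = 0.11).

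The stretch just upstream of the Il6 start is shown because Il6 had the widest range over pools of the factors measured and this stretch holds letters of several inducible factors. It covers chr5:30012864-30013113 of GRCm38.p6, plus strand, 250 bases ending at the base before the RefSeq start, with matched motifs in capitals.
Il6: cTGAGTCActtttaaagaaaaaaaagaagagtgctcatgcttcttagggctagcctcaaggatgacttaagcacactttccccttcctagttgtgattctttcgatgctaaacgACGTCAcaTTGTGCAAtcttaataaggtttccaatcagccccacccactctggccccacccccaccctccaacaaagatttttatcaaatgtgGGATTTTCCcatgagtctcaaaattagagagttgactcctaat
The motifs searched, on both strands, were GGANTTNCC for NF-kappa-B, TGANTCA for AP-1, TTGCNNAA for C/EBP, ACGTG for the hypoxia factors, TGACGTCA for CREB and the shorter ACGTCA, which is contained in the longer one. From left to right the capitals mark AP-1, the shorter CREB motif, C/EBP and NF-kappa-B. Of 32851 RefSeq windows of this length, 6.75% held the AP-1 motif, 6.47% the shorter CREB motif, 9.56% the C/EBP motif and 3.15% the NF-kappa-B motif. The matches describe the letters and say nothing of what bound there in these cells. RefSeq windows were found for Il6, Csf1, Igf1, Vegfa and Areg among the 9 genes.

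The receptors of this family did not all follow the ligands. Il6ra, the interleukin 6 binding chain, lay at 10.75, 11.13, 10.87 and 11.62 in wild-type marrow, HDC-KO marrow, wild-type tumor and labelled HDC-KO tumor, and was not called in any of the 5 contrasts. Il6st, the gp130 chain, was under log2 5 in both marrow pools, 5.20 in wild-type tumor and 6.85 in labelled HDC-KO tumor, a log2 difference of 1.65 between the tumor pools that was called. Lifr, a gp130 partner that mouse oncostatin M can use, was 3.76-fold higher in labelled HDC-KO tumor than in wild-type tumor (limma, adjusted p = 6e-05). Osmr, the dedicated oncostatin M receptor chain, stayed between 2.16 and 2.33 in all 4 pools. Of the related ligands, Clcf1, a gp130 cytokine, rose 3.29-fold between the tumor pools, and Lif, another, lay at 5.40 and 5.05 there.

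The wider ligand list was silent in marrow, where all 20 genes were under log2 5 in both pools. The 5 tested were called higher in each tumor against marrow comparison, having passed the filter only through tumor. Between the tumor pools 3 of them were higher (median 1.72), beside 15.5% of all genes higher and 10.5% lower. Of these 3, Pdgfa needed the labelled HDC-KO tumor arrays to pass the filter. With values raised to log2 5, Lif, Clcf1, Pdgfa and Pdgfc differed by 0.46, 0.89, 0.11 and 0.49 on the log2 scale between wild-type tumor and marrow and were no longer called. Of 18 receptors 8 were tested, of which 3 were higher and 1 lower between the tumor pools (median 0.85), beside the same shares. In wild-type tumor against marrow 4 were higher, beside 11.6% of all genes higher and 4.81% lower, and 3 of these 4, Lifr, Il6st and Erbb3, passed the filter only through tumor. The 8 included Csf1r, Nrp1, Il6ra and Igf1r, each above log2 9 in every pool.

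Hbegf, the heparin-binding ligand of the epidermal growth factor receptor, followed Il6 in tissue but was lower in the labelled HDC-KO tumor pool. Its brighter probe set read 1.72 and 1.91 in wild-type marrow, 2.09 and 2.24 in HDC-KO marrow, 8.89 and 8.79 in wild-type tumor and 8.08 and 8.32 in labelled HDC-KO tumor. Both marrow pools were under log2 5, and the tumor arrays did not overlap. Hbegf was at least 14.3-fold higher in wild-type tumor than in marrow (limma, adjusted p = 1.8e-07) and at least 9.19-fold higher in the HDC-KO-labelled comparison (adjusted p = 1.3e-07). Between the tumor pools it was 1.56-fold lower under the HDC-KO label, at -0.64 ± 0.11 on the log2 scale (limma, adjusted p = 0.0026), which missed the 2-fold threshold.

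The second Hbegf probe set gave the same order of pools with smaller steps. It read 6.19 and 6.72 in wild-type tumor and 5.56 and 5.52 in labelled HDC-KO tumor, with marrow arrays from 2.53 to 3.41. The tumor difference was -0.91 ± 0.21 (limma, adjusted p = 0.009) and was not called. It reached -1.18 without array 1 of the wild-type tumor pool, and was then called.

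Ereg, which encodes epiregulin, rose from background only in part. Its single probe set read 2.97 and 2.60 in wild-type marrow, 2.57 and 2.73 in HDC-KO marrow, 4.14 and 4.56 in wild-type tumor and 5.81 and 4.87 in labelled HDC-KO tumor. Only 1 array reached log2 5, so it was not tested with the others, and the tumor pools did not overlap. Fitted with no filter on low values, its log2 difference between the tumor pools was 0.99 ± 0.29 (limma, adjusted p = 0.036), under the threshold.

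RNA for proteins that cut these ligands free was present in every pool, while RNA of the receptor Egfr was at background. Adam17, the main sheddase of Hbegf and Ereg, lay at 9.05 in wild-type marrow, 10.07 in HDC-KO marrow, 10.03 in wild-type tumor and 10.86 in labelled HDC-KO tumor, and was called 2.04-fold higher in HDC-KO than in wild-type marrow. Adam10 stayed between 11.39 and 11.63, and Rhbdf2, a partner that Adam17 needs in myeloid cells, between 6.84 and 7.36. Of 11 tested genes for release, processing and binding 2 were higher and 1 lower between the tumor pools (median -0.20), shares close to the 15.5% and 10.5% of all genes. The higher ones included Hpse, the heparanase that frees factors bound to heparan sulfate, at 2.64-fold. Thbs1, which encodes the angiogenesis inhibitor thrombospondin 1, was 3.08-fold lower in HDC-KO than in wild-type marrow. Egfr lay at 2.76 to 3.05 and Erbb4 at 2.51 to 2.71 over the 4 pools. Erbb3, a receptor of the same family known from epithelium, was under log2 5 in marrow, 6.03 in wild-type tumor and 8.47 in labelled HDC-KO tumor, a 5.45-fold difference between the tumor pools (limma, adjusted p = 2.6e-05).

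Vegfa was present in every pool and stood out in wild-type tumor alone. Its brighter probe set read 7.67 and 7.74 in wild-type marrow, 7.72 and 7.72 in HDC-KO marrow, 8.88 and 8.82 in wild-type tumor and 8.0 and 7.72 in labelled HDC-KO tumor. The other 3 pools overlapped in the order of their levels and wild-type tumor lay above them. Vegfa was 2.21-fold higher in wild-type tumor than in marrow, at 1.15 ± 0.10 on the log2 scale (limma, adjusted p = 0.00017), and differed by 0.14 ± 0.10 between the HDC-KO pools (adjusted p = 0.22). In labelled HDC-KO tumor it was 1.99-fold under wild-type tumor, at -0.99 ± 0.10 (limma, adjusted p = 0.00018), just short of the threshold. That difference was -1.13 without labelled HDC-KO tumor array 1 and -1.02 without wild-type tumor array 2, and both were called. The other Vegfa probe set stayed under log2 5, from 3.18 to 4.02, with wild-type tumor highest. RefSeq gave windows for 2 starts of Vegfa. Of the motifs searched, none was in the 250 bases before the first start. The other window lies inside the gene's annotated span, so it precedes an internal start. There the hypoxia motif, which 16.6% of all windows held, overlapped the shorter CREB motif.

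Vegfa is a textbook target of the hypoxia response, so other genes of that response were set beside it. Of 15 such genes 6 were called higher and 1 lower in labelled HDC-KO tumor than in wild-type tumor (median log2 difference 0.91, against 0.03 over all tested genes), where 15.5% of genes were called higher and 10.5% lower. Among them Ddit4 was 3.05-fold higher and Epas1, which encodes HIF-2 alpha, at least 3.83-fold higher, while Ero1a was 2.67-fold lower. Car9 and Ankrd37, also among the 6, passed the filter only through the labelled HDC-KO tumor arrays and so had to differ. Epas1 had means under log2 5 in wild-type tumor and both marrow pools, so it also needed those arrays to pass. The count between the tumor pools is therefore no support for a shared rise. Hif1a lay at 12.54 and 12.53 in the tumor pools. Against marrow, 4 of 15 were higher and 1 lower in wild-type tumor, beside 11.6% and 4.81% of all genes, including P4ha1 at 4.60-fold and the glucose transporter Slc2a1 at 3.6-fold. The matching count for the HDC-KO pools was 9 higher and 1 lower, beside 21.1% and 15.4% of all genes, where P4ha1 was 11.4-fold higher. Epas1, Ankrd37 and Car9 passed the filter only through tumor, so the counts against marrow are no support for a shared rise.

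Other angiogenic factors of myeloid cells split between these orders. Prok2, the neutrophil factor Bv8, read 8.57, 8.35, 10.01 and 8.58 in the 4 pools and was 2.70-fold lower in labelled HDC-KO than in wild-type tumor (limma, adjusted p = 4.6e-06). Mmp14, a membrane metalloprotease, was 4.69-fold lower there and the urokinase Plau 4.00-fold lower. Plau went the other way between the marrow pools, where it was 3.32-fold higher in HDC-KO. Of 13 tested genes of this list 1 was called higher and 4 lower between the tumor pools, with a median of -0.04, beside 15.5% and 10.5% of all genes. In wild-type tumor against marrow 8 were higher and none lower, beside 11.6% and 4.81%, with Cxcl2 79.2-fold and Cxcl3 at least 318-fold higher. The HDC-KO pools gave 6 higher and 2 lower, beside 21.1% and 15.4%. The lower ones were Plau, by -1.41 on the log2 scale, and the growth factor gene Hgf, by -1.13. Ccl2 and Mmp14 passed the filter only through tumor. Cxcl3, at 5.46 and 4.27 in wild-type marrow and lower in HDC-KO marrow, also needed tumor arrays to pass. The counts against marrow are therefore no support for a shared rise. Ccl2, 1 of the 4 lower between the tumor pools, passed only through the wild-type tumor arrays, at 5.62 and 5.68. Its lower call is therefore no support either. In wild-type marrow Cxcl2 lay at 7.45 and in HDC-KO marrow at 2.89, at least 5.46-fold lower.

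Pdgfb was not detected above background in any pool. Its 2 probe sets lay between 1.91 and 3.79 on all 8 arrays, and the highest values were those of labelled HDC-KO tumor, at 3.39 and 3.79. Pdgfa and Pdgfc, ligands of the same family, were instead measured in tumor. Pdgfc read 5.49 in wild-type tumor and 7.46 in labelled HDC-KO tumor, 3.93-fold higher (limma, adjusted p = 0.0034), and Pdgfa 4.89 and 7.25, at least 4.75-fold higher (adjusted p = 0.0072). Pdgfa read 4.57 and 5.22 on the wild-type tumor arrays, so it needed the labelled HDC-KO tumor arrays to pass the filter. Its labelled HDC-KO tumor arrays lay apart, at 8.07 and 6.42. The log2 difference of 2.35 was 1.53 without array 1 and 3.18 without array 2 of that pool. For Pdgfc the log2 difference of 1.97 was 1.39 without array 1 and 2.56 without array 2. Of the receptors, Pdgfra and Pdgfrb stayed under log2 5, as did Kdr, Flt1 and Flt4, which bind the VEGF proteins. Nrp1, a co-receptor of Vegfa, lay at 9.27, 10.10, 9.14 and 9.57 and was not called.

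Csf1 moved in opposite directions with the genotype labels in the tissues. Its brightest probe set read 6.71 and 6.72 in wild-type marrow, 5.77 and 5.49 in HDC-KO marrow, 7.49 and 7.54 in wild-type tumor and 8.86 and 8.75 in labelled HDC-KO tumor. No pools overlapped, HDC-KO marrow being lowest and labelled HDC-KO tumor highest. Csf1 fell 2.12-fold in HDC-KO marrow, at -1.08 ± 0.10 (limma, adjusted p = 0.00098), and rose 2.44-fold in labelled HDC-KO tumor, at 1.29 ± 0.10 (adjusted p = 6.8e-05). Without HDC-KO marrow array 2 the marrow difference was -0.94 and was not called. The difference between these effects was 2.37 ± 0.14 on the log2 scale (limma, adjusted p = 4e-05). In wild-type tumor Csf1 was 1.75-fold over marrow, a difference of 0.80 ± 0.10 that was not called, and in labelled HDC-KO tumor 9.03-fold over HDC-KO marrow (limma, adjusted p = 8e-07).

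The other Csf1 probe sets were dim. One read 5.01 and 4.82 in labelled HDC-KO tumor and 2.74 to 3.33 on the other 6 arrays, a log2 difference of 1.60 ± 0.13 between the tumor pools in the fit with no filter (limma, adjusted p = 4.8e-05). The remaining ones stayed between 2.50 and 3.20 on every array. The marrow difference therefore rests on 1 probe set. Csf1r, the receptor, read 10.73, 11.23, 12.21 and 13.15 over the 4 pools and was 2.80-fold higher in wild-type tumor than in marrow (limma, adjusted p = 7.9e-06).

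The stretch before the Csf1 start is shown because Csf1 was the 1 factor called in both genotype comparisons. It covers chr3:107760470-107760719 of GRCm38.p6, minus strand, written 5′ to 3′, with the NF-kappa-B motif in capitals, here matched on the opposite strand.
Csf1: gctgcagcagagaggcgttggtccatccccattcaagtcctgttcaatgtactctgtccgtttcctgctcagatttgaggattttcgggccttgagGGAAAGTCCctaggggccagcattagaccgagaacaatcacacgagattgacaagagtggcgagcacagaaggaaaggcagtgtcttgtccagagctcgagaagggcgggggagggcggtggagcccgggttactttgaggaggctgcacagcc
This motif was shared with the Il6 stretch above, and no AP-1, C/EBP, CREB or hypoxia motif was found in these bases.

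**Figure D2:**
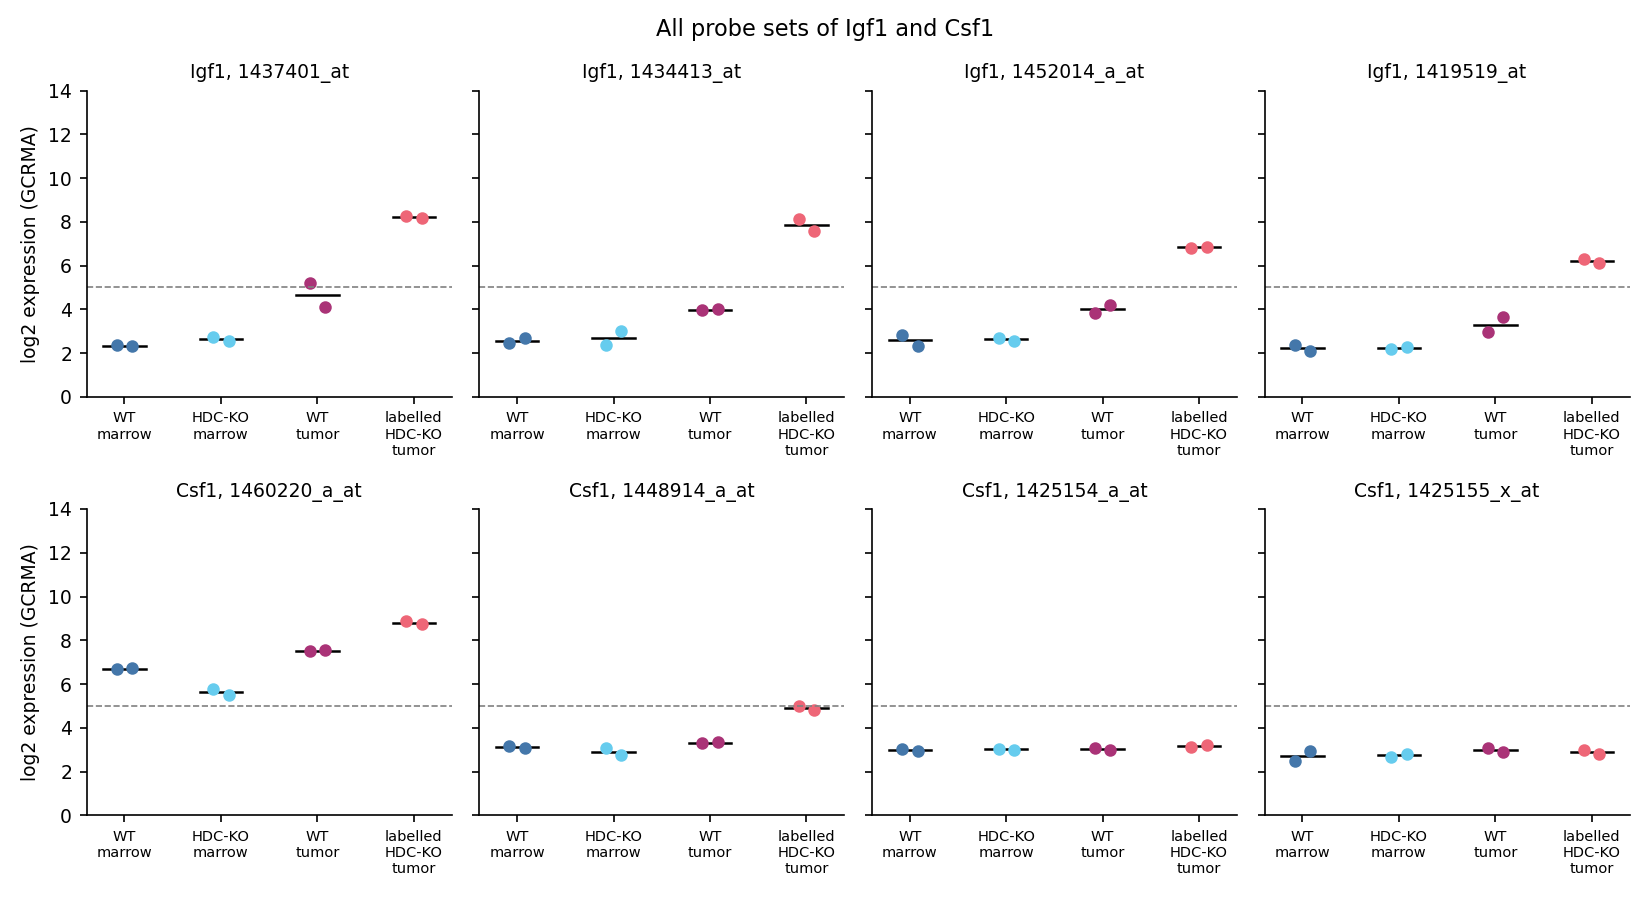
Log2 expression on each array is plotted for the 4 probe sets of Igf1 (top) and the 4 of Csf1 (bottom), with points for arrays, black lines for pool means and a dashed line at log2 5. All 4 Igf1 probe sets put labelled HDC-KO tumor highest, while for Csf1 only the brightest was above the line in every pool.

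Igf1 separated the tumor pools more than any other factor measured here. Its brightest probe set read 2.35 and 2.34 in wild-type marrow, 2.75 and 2.56 in HDC-KO marrow, 5.22 and 4.09 in wild-type tumor and 8.28 and 8.16 in labelled HDC-KO tumor. The other 3 probe sets read 8.12 and 7.57, 6.81 and 6.85, and 6.30 and 6.14 in labelled HDC-KO tumor, against 2.96 to 4.22 in wild-type tumor. Igf1 was under background in both marrow pools by every probe set and clearly above it in labelled HDC-KO tumor alone. Its rise over wild-type tumor was at least 9.33-fold by the brightest probe set, at 3.56 ± 0.33 on the log2 scale (limma, adjusted p = 0.00014). The other probe sets gave at least 7.19-fold, 3.56-fold and 2.33-fold, each called. None of the 4 probe sets would have passed the filter without the labelled HDC-KO tumor arrays. Wild-type tumor was also called above wild-type marrow by all 4 probe sets, at 1.07 to 2.31 on the log2 scale, but both pool means lay under log2 5, and no call was left once values were raised to log2 5.

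The binding and receptor genes of insulin-like growth factors moved in both directions between the tumor pools. Igf1r read 11.59, 11.87, 11.12 and 10.93 and was not called. Igf2r, which clears insulin-like growth factor 2 and carries lysosomal enzymes, fell 7.24-fold in labelled HDC-KO tumor (limma, adjusted p = 7.1e-05). Igfbp4, a binding protein that holds the factor back, fell 4.34-fold there (limma, adjusted p = 2.1e-06), and Igfbp6, a binding protein that prefers the second factor, was at least 2.66-fold higher, having passed the filter only through labelled HDC-KO tumor. Igfbp2, Igfbp3, Igfbp5 and Igfbp7 stayed under log2 5.

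The stretch before an Igf1 start is shown because Igf1 was the factor with the largest difference between the tumor pools. RefSeq's window for Igf1 lies inside the gene's annotated span, so it precedes an internal start and not the first one. It covers chr10:87860861-87861110 of GRCm38.p6, plus strand, with its 1 match, the AP-1 motif, in capitals.
Igf1: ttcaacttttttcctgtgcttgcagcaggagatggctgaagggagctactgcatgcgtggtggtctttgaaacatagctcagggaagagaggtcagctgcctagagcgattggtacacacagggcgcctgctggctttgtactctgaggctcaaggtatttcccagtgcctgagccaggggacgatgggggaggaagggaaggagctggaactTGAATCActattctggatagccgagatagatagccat

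Markers of other cells differed between the pools as well. The mean log2 level of 16 monocyte and macrophage markers was 5.71 to 5.75 in wild-type marrow, 6.39 to 6.46 in HDC-KO marrow, 9.50 to 9.54 in wild-type tumor and 10.92 in labelled HDC-KO tumor. Of these 12 were called higher and none lower between the tumor pools, where Igf1 and Csf1 were higher too, beside 15.5% of all genes higher and 10.5% lower. Between the marrow pools 5 were higher and 1 lower in HDC-KO, beside 1.8% and 2.02%, while Csf1 was lower there. All 16 were higher in each tumor against marrow comparison, beside 11.6% of all genes for wild-type and 21.1% for HDC-KO, and 6 of them passed the filter only through tumor. The mean level of 16 intestinal epithelial markers was 3.16 to 3.20, 3.04 to 3.08, 8.01 to 8.04 and 10.65 to 10.76 in the same order. In labelled HDC-KO tumor all 16 had means at or above log2 5, and 15 of them passed the filter only through tumor. Of 9 granulocyte precursor markers 8 were lower and 1 higher between the tumor pools, beside 10.5% and 15.5% of all genes, while the mean level of 11 neutrophil markers stayed between 13.64 and 13.89. The 12 fibroblast and endothelial markers were under log2 5 in every pool, with mean levels from 2.51 to 2.96. Means over 7 T and NK cell markers were 3.64 to 4.33 on the other arrays and 5.48 to 5.71 in labelled HDC-KO tumor, and means over 6 B and plasma cell markers were 5.89 to 7.25 in marrow and 9.01 to 10.67 in tumor. Means over 10 basophil, mast cell and eosinophil markers were 5.42 to 5.51 in wild-type marrow and 3.75 to 4.58 elsewhere. The part of macrophages and epithelial cells, or of any other cell type named here, in the levels of Igf1, Csf1 and the other factors was not tested. In pooled RNA, a larger share of a cell type and more RNA per cell cannot be told apart.

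**Figure D3:**
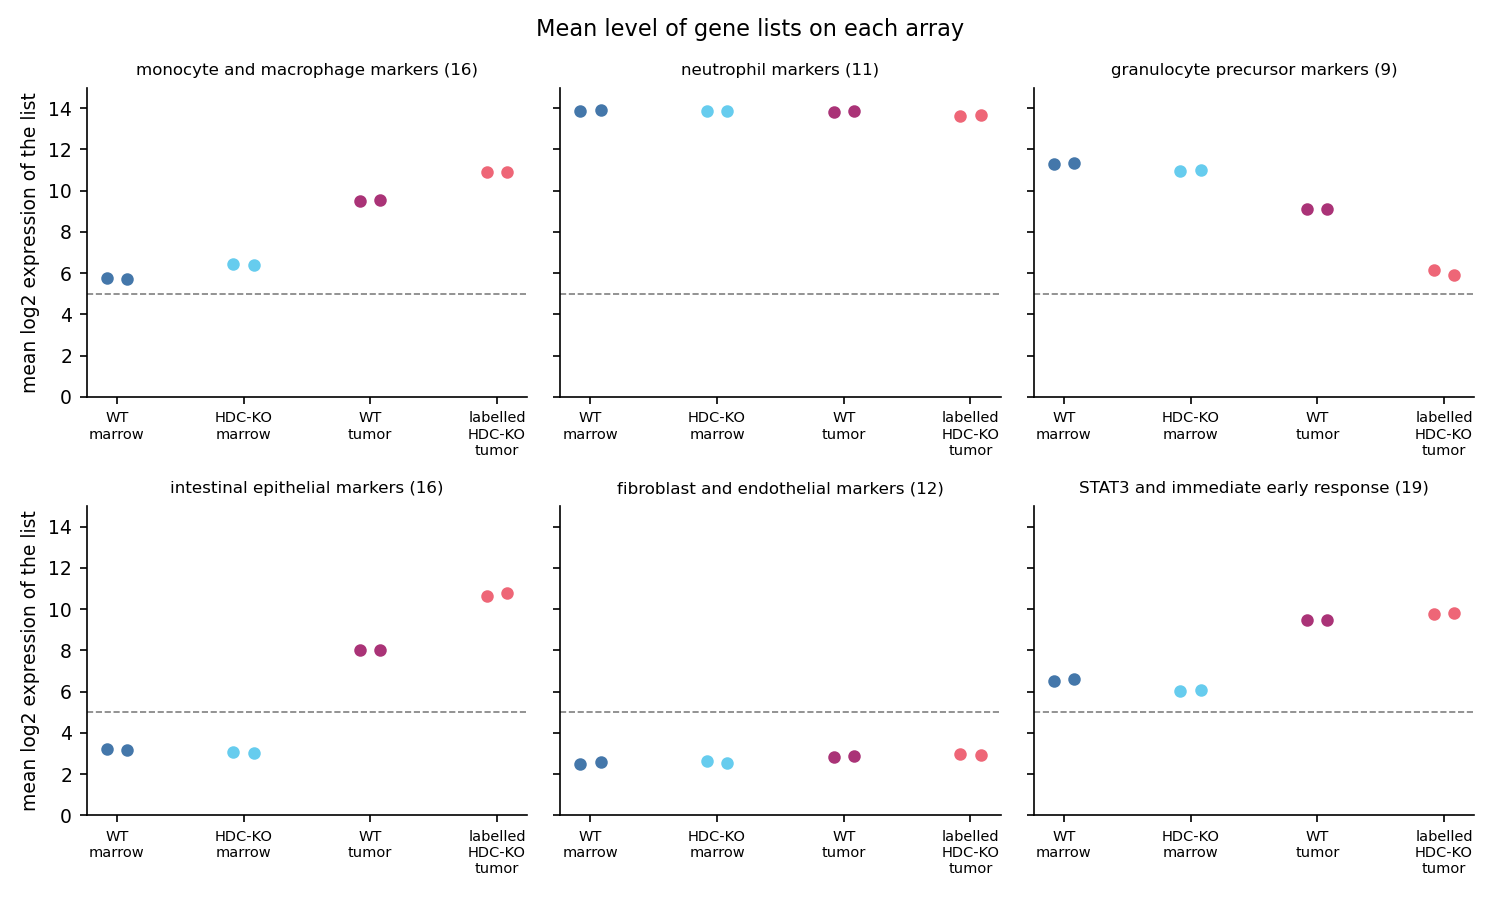
Points give the mean log2 expression of each gene list on each array, for the number of genes in brackets, with a dashed line at log2 5. Macrophage and epithelial markers climbed from marrow to wild-type tumor to labelled HDC-KO tumor, granulocyte precursor markers fell in that order, neutrophil markers stayed between 13.64 and 13.89 and stromal markers stayed under the line.

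Immediate early and STAT3 response genes were high where Il6, Osm and Hbegf were high. Their mean log2 level over 19 genes was 6.50 to 6.59 in wild-type marrow, 6.02 to 6.07 in HDC-KO marrow, 9.45 to 9.48 in wild-type tumor and 9.78 to 9.81 in labelled HDC-KO tumor. Of 16 tested, 13 were higher and none lower in wild-type tumor than in marrow (median 3.40), beside 11.6% of genes higher and 4.81% lower. In the HDC-KO-labelled comparison 14 were higher and none lower (median 4.51), beside 21.1% and 15.4% of genes. Of the 16, 7 (Egr1, Egr2, Jun, Atf3, Dusp2, Fosb and Socs2) were under log2 5 on every marrow array and passed the filter only through tumor, so these counts are no support for a shared rise. Egr1, a growth-induced transcription factor, was at least 185-fold and at least 274-fold higher, and Socs3, the STAT3 feedback inhibitor, rose by 3.62 and 4.43 on the log2 scale. Between the tumor pools Jun was the 1 called, 2.97-fold higher, beside 15.5% of all genes called higher and 10.5% lower. Between the marrow pools Fos was 6.90-fold and Dusp1 3.05-fold lower in HDC-KO, beside 2.02% of genes called lower and 1.8% higher. Stat3 itself stayed between 11.18 and 11.60. Immediate early genes are also known to respond to tissue dissociation, and its part was not tested.

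**Figure D4:**
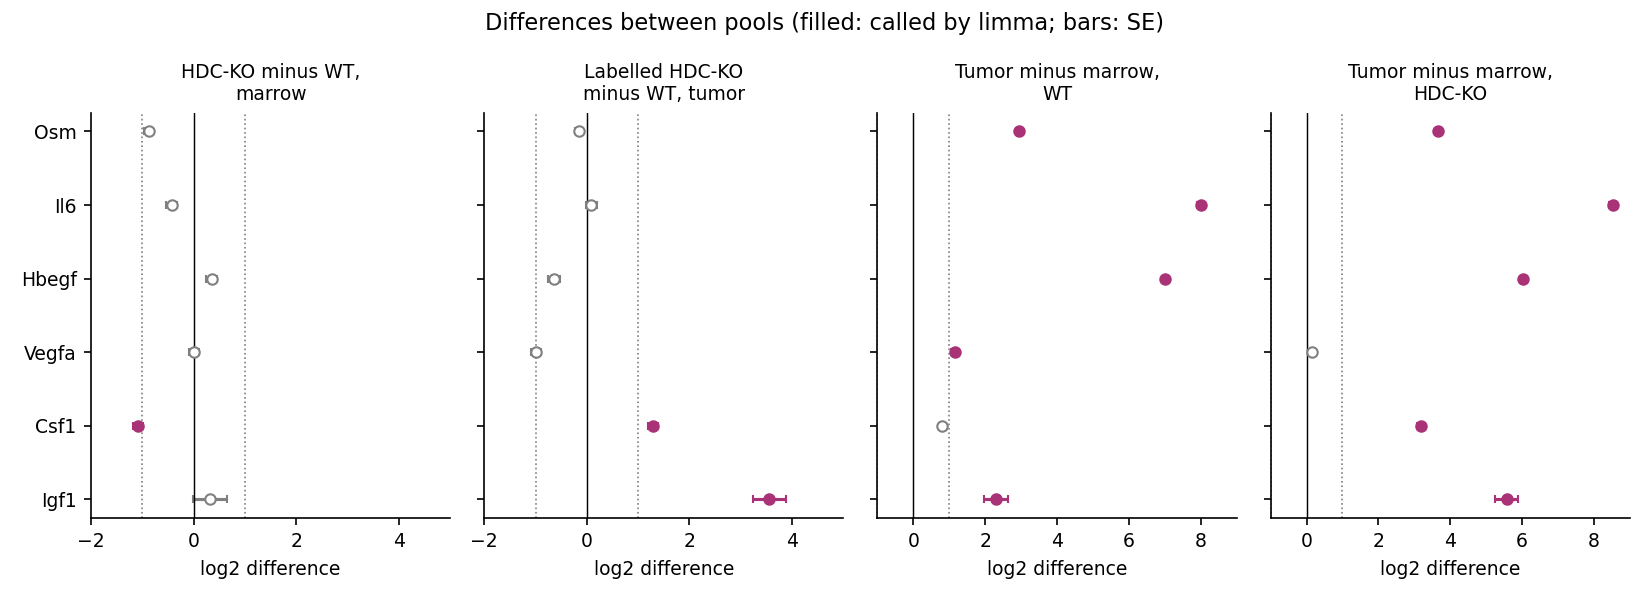
Log2 differences with SE bars for the brightest probe set of the 6 tested genes in 4 comparisons, with filled points for those called by limma and dotted lines at a 2-fold difference. Csf1 was the 1 factor called between the marrow pools, and Csf1 and Igf1 were called between the tumor pools. Il6, Hbegf, Osm and Igf1 were called in both tumor against marrow comparisons. For Igf1 both wild-type pool means lay under log2 5.

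The genotype effect in tumor was set against that in marrow in a single test. Of the 10 probe sets 5 were called higher in tumor than in marrow, those of Csf1 and Igf1, and 2 lower, 1 each of Vegfa and Hbegf, beside 15.2% and 12.3% of all probe sets and with the same limit from the filter. Osm had a difference of effects of 0.72 ± 0.11 (limma, adjusted p = 0.0016) and Il6 of 0.52 ± 0.15 (adjusted p = 0.022), both under the threshold. That for Il6 was 0.09 with means raised to log2 5. The 2 tumor against marrow comparisons and the 2 genotype comparisons share pools, so they are not independent of each other.

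The genes whose pattern over the 4 pools lay closest to each factor were found from pool means centred on their own average. For Il6 these were Egr3, an immediate early transcription factor, at a root-mean-square distance of 0.16 on the log2 scale, and the Y-linked Eif2s3y at 0.21. For Osm they were Il1b and Pde4b, a cyclic AMP phosphodiesterase, at 0.15 each. For Hbegf they were Mmp13, a collagenase, at 0.15 and Serpinb2, an inhibitor of urokinase, at 0.19. For Vegfa they were Uck2 at 0.03 and Pag1 at 0.04, and for Csf1 C130050O18Rik at 0.19 and Vopp1 at 0.21. For Igf1 they were Cadm1, an adhesion molecule, at 0.06 and Oit1 at 0.09, and for Ereg Cttnbp2nl and Cndp2 at 0.04 each. Ereg and Cttnbp2nl lay under log2 5 outside labelled HDC-KO tumor. The matched probe sets of Uck2, Pag1, Cadm1, Cttnbp2nl and Cndp2 were not the brightest of their genes. With 1 array left out, the brightest of Uck2 and Pag1 gave 0.36 to 0.46 and 0.07 to 0.10 for wild-type tumor minus marrow. Vegfa gave 1.15. Between the tumor pools those of Cttnbp2nl, Cndp2 and Cadm1 gave -0.65 to 1.04, 0.68 to 0.76 and 2.71 to 3.06. With 4 pools a small distance is a description of these pools only.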

How the data were processed

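RNA of sorted CD11b+Gr-1+ cells was hybridised to Affymetrix arrays, 8 arrays in 4 pools of 2. The values deposited by the authors are log2 expression per probe set. They were made with GCRMA, a background correction, normalization and summary of probes, per the submitters' processing notes. That the scale is log2 was read from the values themselves. Software versions, detection calls and a genome build are not given in the labels. Precision is limited by the number of arrays, which have no read depth.

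Names came from the platform annotation, in which 34958 probe sets had 1 gene symbol, 932 several and 9211 none. A probe set was tested if 2 arrays or more reached log2 5, which left 15734. The test was limma 3.58.1 under R 4.3.3, with all 8 arrays in a single fit of lmFit and eBayes (4 residual and 2.19 prior degrees of freedom). Calls need a Benjamini-Hochberg adjusted p under 0.05, adjusted over all probe sets tested, and a difference of log2 1 or more in size. Errors are limma's SE. A fold against a pool mean under log2 5 is a bound with that mean raised to 5, and there is no fold where both pools were that low. The median difference over all probe sets tested was -0.114 for labelled HDC-KO tumor against HDC-KO marrow and within 0.1 of 0 elsewhere.

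Pathway and marker lists use the brightest probe set of a gene, with 8174 genes tested, and some genes stand in several lists. Of the pathway lists, up to 3 called genes per comparison are named by the largest difference with means raised, as are the 2 genes nearest each factor. Receptors and list genes outside this rule, and Xist, were picked with their values in view. The members and lists were chosen with earlier results of these data known. In a simulation of HDC-KO against wild-type marrow over 15734 probe sets, 91 of 100 changes of log2 1.5 and 98 of 100 of log2 2 were recovered, with 0 false calls. Promoter windows are RefSeq sequences of GRCm38.p6.

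Other settings tried were testing every probe set, requiring log2 7, raising values to log2 5, quantile normalization, median centring, 1 probe set per gene, a fit of the compared groups alone, trended and robust variances, the replicate number as a block, and each array left out. A fit without the pool labelled HDC-KO tumor was added after its Hdc level was seen. The labels do not link same-numbered arrays, and the array 1 minus array 2 differences of 2 pools correlated at -0.017 to 0.067, so the numbers were not taken as pairs.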

Additional observations from a re-analysis of the deposited data

Results flagged for a closer look

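For 7 probe sets the genotype effect differed between tumor and marrow in limma's test of that difference, given here as tumor minus marrow on the log2 scale. Vegfa differed by -1.0, which was -0.86 without labelled HDC-KO tumor array 2, -0.97 without wild-type marrow array 1 and -0.97 without wild-type tumor array 1, none of them called. The dimmer Hbegf probe set differed by -1.44, or -0.91 and no longer called with values raised to log2 5, while the brighter one, at -0.99, was not called. Csf1 differed by 2.37. The 4 probe sets of Igf1 differed by 3.25, 3.75, 2.77 and 2.91, and with pool means raised to log2 5 by 3.22, 2.85, 1.83 and 1.22. Each value rests on how the HDC-KO tumor pool is labelled. No explanation for these differences was tested.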

How the results depend on the processing

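Of 825 values of the factors' probe sets under the alternatives, 803 kept their side of the threshold, 12 were no longer called, 10 became called and no called value changed sign. The 803 include 8 values that were not called in either fit and changed sign. With 1 probe set per gene the counts of calls were 312 and 2122 for HDC-KO against wild-type in marrow and tumor, 1338 and 2986 for tumor against marrow in wild-type and HDC-KO, and 2330 for the difference of effects, against 649, 3796, 2617, 5729 and 4324 in the reported fit, since fewer features were tested. The filter at log2 7 left 1727 calls for wild-type tumor against marrow, again from fewer features. With the replicate block the 5 counts were 647, 3796, 2615, 5728 and 4319, and no call on a factor's probe set changed. Leaving out 1 array gave 606 to 647, 3795 to 3864, 2595 to 2635, 5726 to 5796 and 4287 to 4368 calls. Without the pool labelled HDC-KO tumor there were 647 calls in marrow and 2619 for wild-type tumor against marrow. Median centring made Vegfa called between the tumor pools at -1.01, and quantile normalization did so for the dimmer Hbegf probe set at -1.09. With values raised to log2 5 the dimmer Hbegf probe set was not called in the HDC-KO-labelled tumor against marrow comparison, at 0.54. The dimmest Igf1 probe set was not called in wild-type tumor against marrow without wild-type marrow array 2, at 0.93, or wild-type tumor array 2, at 0.73. The brighter Hbegf probe set became called for the difference of effects at -1.03 with median centring and at -1.04 to -1.11 without 1 of 4 arrays. The cause of these changes was not tested. Each group is 1 pool, so no alternative covers the spread between mice.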
